A study of Mus musculus with 6 samples.

Results

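The urokinase receptor gene Plaur and its ligand gene Plau were the abundant members of a set of 7 plasminogen activation and coagulation genes in RAW264.7 macrophages given titanium (Ti) particles. The set was taken as a list of names (Plau, Plat, F10, Serpinb2, Plaur, F3 and Thbs1) out of 55536 annotated genes, chosen with earlier results of these data known. Of its 7 members 2, Plau and Plaur, had enough counts to be tested among 15376 genes. RAW264.7 is a mouse macrophage line transformed by a leukaemia virus and grown in culture. The labels list its background strain as C57BL/6, although the line is known to come from a BALB/c mouse. The control group was 3 libraries from cells given phosphate-buffered saline (PBS), and the treated group was 3 libraries from cells given Ti particles, with no allele, transgene or other agent named for either. No source used here gives the size of the particles, their dose or how long cells were exposed, and all libraries come from 1 cell line with no statement that the cultures were separate. The p-values thus reflect only variation between these libraries, and that variation may be technical.

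Plasminogen circulates as an inactive precursor and is cut to the protease plasmin by urokinase (Plau) or by tissue-type plasminogen activator (Plat). Urokinase does this at the cell surface when it is bound to its receptor (Plaur), and plasminogen activator inhibitor 2 (Serpinb2), a serpin, blocks both activators. Coagulation starts when tissue factor (F3) binds factor VII and activates factor X (F10), which in turn makes thrombin. Thrombospondin 1 (Thbs1) is a matrix protein that platelets and macrophages can release and that activates latent TGF-beta. Macrophages are known to carry much urokinase receptor, and stimulated monocytes are a classic source of tissue factor and of plasminogen activator inhibitor 2.

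The promoter windows of 3 members are shown because they share a sequence motif while their transcripts stood at opposite ends of the range measured here. Windows of 250 bases before to 50 bases after the RefSeq transcription start (GRCm38.p6) were held for 4 of the 7 members, Plaur, F10, F3 and Serpinb2. The motif searched was TGANTCA, the core site of AP-1 factors, which reads the same on both strands. Of 32851 such windows in the table, 7.81% held it, and so did those of Plaur, F3 and Serpinb2 and not that of F10. Capitals mark each match. The Plaur window is chr7:24462233-24462532, plus strand, with a match 69 bases before the start, the F3 window is chr3:121723287-121723586, plus strand, with matches 146 and 135 bases before it, and the Serpinb2 window, the more upstream of 2 in the table, is chr1:107511173-107511472, plus strand, with a match 94 bases before its start.
Plaur: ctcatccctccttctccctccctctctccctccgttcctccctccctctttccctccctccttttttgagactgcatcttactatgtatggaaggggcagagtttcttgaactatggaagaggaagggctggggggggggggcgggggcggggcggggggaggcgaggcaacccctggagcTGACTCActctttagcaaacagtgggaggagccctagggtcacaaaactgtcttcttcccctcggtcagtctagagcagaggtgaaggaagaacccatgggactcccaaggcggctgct
F3: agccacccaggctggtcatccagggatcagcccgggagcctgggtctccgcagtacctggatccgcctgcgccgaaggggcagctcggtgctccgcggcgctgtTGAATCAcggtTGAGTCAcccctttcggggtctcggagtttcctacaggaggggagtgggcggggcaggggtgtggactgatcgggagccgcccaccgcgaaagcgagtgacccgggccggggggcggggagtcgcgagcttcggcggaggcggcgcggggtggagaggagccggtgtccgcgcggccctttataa
Serpinb2: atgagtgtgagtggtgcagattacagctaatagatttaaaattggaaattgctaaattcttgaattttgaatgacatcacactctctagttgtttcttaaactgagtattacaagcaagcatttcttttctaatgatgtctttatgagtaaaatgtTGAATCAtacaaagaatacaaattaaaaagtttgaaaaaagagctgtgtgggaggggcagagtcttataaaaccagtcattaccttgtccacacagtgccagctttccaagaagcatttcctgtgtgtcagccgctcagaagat
A match describes letters and not a bound site. Plaur was at 34.0 TPM or more in every library, whereas F3 and Serpinb2 stayed below 3 counts in every library.

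The libraries held 37686020 to 60242937 rescaled counts on annotated transcripts. Levels are given as CPM, which are rescaled counts scaled to a common library size with TMM factors. Comparisons between genes are given as TPM, which divides by transcript length and is scaled to each library's own total, with no TMM factors. A count of 3 in a library, between 0.0469 and 0.0804 CPM, was taken as the limit that a count of 0 allows; limits of this kind cover counting error only, and are approximate because rescaled counts do not number reads. All 10 macrophage markers, among them Csf1r, Adgre1 and Lyz2, reached this level in every library and summed to 5694 to 7510 CPM in control and 7050 to 8934 CPM with Ti. The 6 fibroblast and 6 epithelial markers were below 3 counts everywhere, and of 6 each for endothelial cells, hepatocytes, T and B cells, and neutrophils and mast cells 0 reached 3 counts in every library. Of 6 markers of platelets and their precursors 3 reached 3 counts in every library, and the list summed to 0.767 to 1.99 CPM in control and 0.603 to 2.00 CPM with Ti. In bulk RNA, fewer cells of a kind and less RNA per cell cannot be told apart.

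The first question was which members differed between Ti and PBS libraries. Plaur was higher in every Ti library than in every control library, by a similar factor in each numbered pair, and Plau was higher in each numbered pair although its groups overlapped widely. F10 was at 6 to 33 rescaled counts in the Ti libraries and at 0 to 5 in control. Plat was scarce in both groups, and Serpinb2, F3 and Thbs1 were at or next to 0. Across all genes tested, 0.026% passed an adjusted p of 0.05 in either direction (edgeR quasi-likelihood test, Benjamini-Hochberg), which is 4 genes, and 0 of the 2 members tested were among them. At an unadjusted p under 0.05 with Ti higher, 1 of the 2 passed, beside 3.42% of all genes tested. Among the 26073 genes with a count in any library, 5.16% had every Ti library above every control library, and 2 of the 7 members, Plaur and F10, were of this kind. Because the members were chosen with earlier results of these data known, their shares are a description only.

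**Figure D1:**
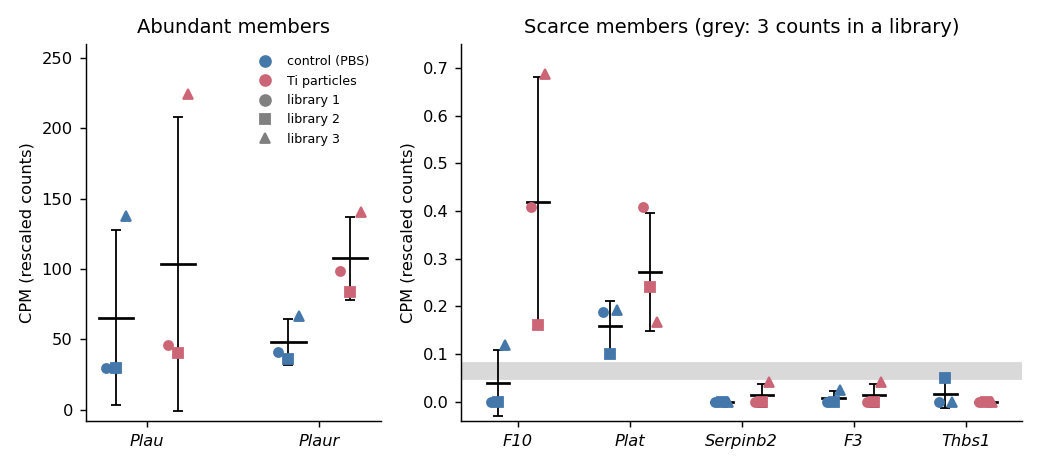
CPM (vertical axes, linear) of the 7 members in each library, with control libraries in blue, Ti libraries in red, library numbers as symbols, and the mean and SD of 3 libraries in black. Plaur and F10 have every Ti point above every control point, Plau is high in the libraries numbered 3 of both groups, and Serpinb2, F3 and Thbs1 lie at or below the grey band, which spans the CPM of 3 counts in the 6 libraries.

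Plaur (ENSMUSG00000046223, GRCm38 chromosome 7, 24462484 to 24475968, plus strand) encodes the urokinase receptor, a protein held on the membrane by a lipid anchor. In order of replicate number, the control libraries held 41.1, 35.8 and 66.4 CPM and the Ti libraries 98.5, 83.5 and 140.7 CPM. The lowest Ti library lay above the highest control library, and the libraries numbered 3 were the highest of their groups. The means were 47.8 ± 16.4 CPM in control and 108 ± 29.7 CPM with Ti (SD, n = 3 per group). The log2 fold change was 1.17 ± 0.30 (SE), with an unadjusted p of 0.00794 and an edgeR adjusted p of 0.458, so Plaur did not pass. By DESeq2 it did (log2 fold change 1.18 ± 0.34, DESeq2 adjusted p 0.0319), where 1.06% of all genes passed with Ti higher. Leaving out each library in turn kept the fold change between 0.93 and 1.49, and the smallest exact permutation p that 3 libraries against 3 allow, 0.1 two-sided, was reached.

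Plau (ENSMUSG00000021822, chromosome 14, 20836660 to 20843385, plus strand) encodes urokinase, the secreted activator that Plaur binds. The control libraries, in the same order, held 29.4, 29.5 and 137 CPM and the Ti libraries 45.7, 40.4 and 224 CPM. The library numbered 3 of each group stood several times above the other two, and control replicate 3 was above Ti replicates 1 and 2, so the groups overlapped. The means were 65.4 ± 62.3 CPM in control and 104 ± 105 CPM with Ti (SD, n = 3 per group), a difference well within the spread. The log2 fold change was 0.66 ± 0.92 (edgeR adjusted p 0.967). Leaving out Ti replicate 3 turned it to -0.60, and leaving out control replicate 3 took it to 1.82.

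Read by number, the same values were far more even. Over all genes, libraries that share a number leaned the same way, so the number was also fitted as a block. The Ti over control ratio of Plau was 1.55, 1.37 and 1.63 for the libraries numbered 1, 2 and 3, and that of Plaur was 2.40, 2.33 and 2.12. The largest Plau ratio thus stood below the smallest Plaur ratio. With the replicate block the log2 fold change of Plau was 0.60 ± 0.09 (unadjusted p 0.00289, edgeR adjusted p 0.361) and that of Plaur 1.19 ± 0.08 (unadjusted p 0.000172, edgeR adjusted p 0.233). Both were under 0.05 unadjusted with Ti higher, as were 5.04% of all genes in that fit, and neither passed the adjustment, as did 0 genes of 15376. Dropping both libraries numbered 3, with no block, was tried after the data had been seen, and the values were 0.55 ± 0.13 for Plau and 1.25 ± 0.15 for Plaur (edgeR adjusted p 0.383 and 0.200). The pairing comes from the data, and what the libraries numbered 3 shared was not tested.

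**Figure D2:**
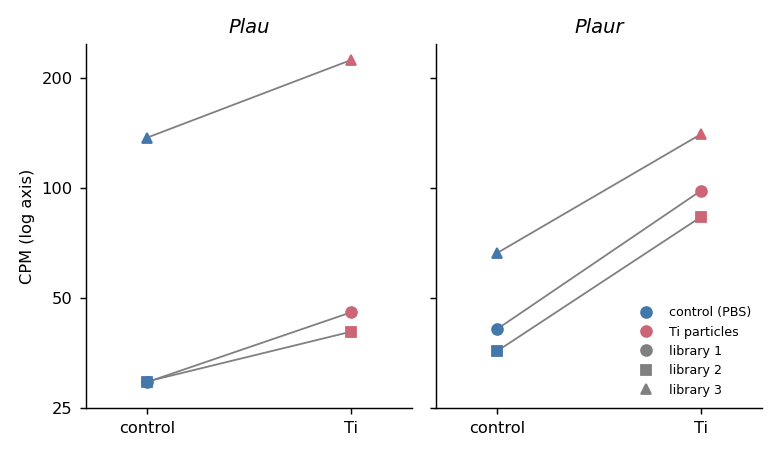
CPM (log axis) of Plau and Plaur in control and Ti libraries, with a grey line joining libraries of the same number and symbols giving the number. All 6 lines run upward and are nearly parallel within each gene, and the Plau line of number 3 (137 to 224 CPM) lies far above the other two.

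Per transcript length, Plaur and Plau were close to each other and far above the other members. Plaur stood at 48.1 ± 19.97 TPM in control and 111 ± 38.9 TPM with Ti, and Plau at 37.0 ± 37.5 and 57.9 ± 60.5 TPM (SD, n = 3 per group). Receptor stood above ligand in 5 of the 6 libraries. Plaur and Plau were at 39.4 and 15.4 TPM in control replicate 1 and at 151 and 128 TPM in Ti replicate 3, and control replicate 3 was the exception with 71.0 and 80.3 TPM. The distance between these neighbours was within the spread of Plau in either group. F10 and Plat followed at means of 0.221 and 0.127 TPM over all 6 libraries, and F3, Serpinb2 and Thbs1 were below 0.02 TPM.

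The transcripts of Plaur did not all share the pattern. Plaur-201, the full coding transcript (ENSMUST00000002284), made up 72.1% to 77.4% of the gene in every library. The control libraries held 29.9, 27.5 and 47.9 CPM of it, and the Ti libraries 71.3, 64.6 and 106 CPM. Plaur-204, annotated as retaining an intron, stood at 3.32, 2.88 and 4.34 CPM against 2.91, 3.47 and 3.40 CPM, so its groups overlapped and its mean with Ti was 0.928 of that in control. Plaur-205, also annotated with a retained intron, gave 0.991, 0.693 and 0.949 CPM against 0.760, 0.735 and 1.24 CPM. As a share of the gene, Plaur-204 lay between 6.53% and 8.08% in control and between 2.42% and 4.16% with Ti. Plaur-205 lay between 1.43% and 2.41% in control and between 0.771% and 0.880% with Ti. The shares of both had every Ti library below every control library, 2 of 5 Plaur transcripts compared, beside 4.19% of 31031 transcripts of all genes. The share of 1 of the 5, Plaur-206, was higher in every Ti library, beside 4.6% of all. Shares within a gene are of its annotated transcripts only and add up to a fixed whole, so they are not independent of each other.

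A further transcript annotated with a retained intron (ENSMUST00000205877) held 6.83, 3.22 and 13.3 CPM in control and 18.6, 10.9 and 22.4 CPM with Ti. Its groups overlapped, and each Ti library was above its same-numbered control. Plaur-206, of a class marked for nonsense-mediated decay in the annotation, was at 0 in control replicates 1 and 3 and at 1.48 CPM in control replicate 2, and at 4.93, 3.79 and 7.25 CPM in the Ti libraries. How reads were divided among overlapping transcripts is not stated, and how surely these transcripts could be told apart was not analysed here. Plau had almost all of its counts, at least 99.3%, on its coding transcript Plau-201 (ENSMUST00000022368).

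**Figure D3:**
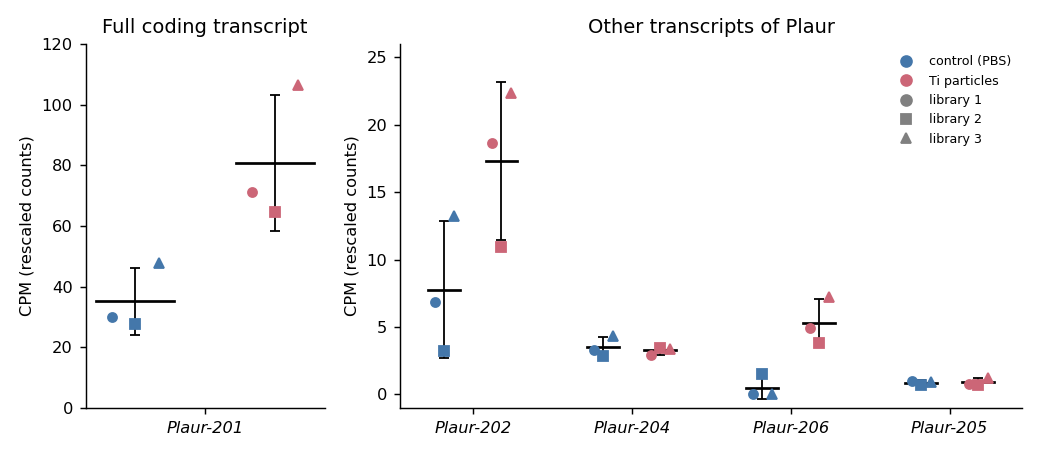
CPM (linear axes) of the Plaur transcripts in each library, with control in blue, Ti in red, library numbers as symbols, and the mean and SD of 3 libraries in black. Plaur-201 has all Ti points above all control points (64.6 to 106 against 27.5 to 47.9 CPM), while Plaur-204 and Plaur-205 overlap.

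F10 (ENSMUSG00000031444, chromosome 8, 13037308 to 13056676, plus strand), the gene of coagulation factor X, was scarce. Its rescaled counts were 0, 0 and 5 in control replicates 1, 2 and 3 and 19, 6 and 33 in the Ti ones, or 0, 0 and 0.120 CPM against 0.408, 0.161 and 0.686 CPM. All Ti libraries lay above all control libraries, and control replicate 3 and Ti replicate 2 were 1 count apart. The filter on low counts removed the gene, so it was not tested in the main fit. With no filter its log2 fold change was 3.41 ± 1.25 (unadjusted p 0.0305, edgeR adjusted p 0.817). The control side of that value rests on the 5 counts of control replicate 3 alone. The exact two-sided permutation p was 0.1, the smallest possible. In Ti replicates 1 and 3 a shorter coding transcript (ENSMUST00000123768) held 36.7% and 30.3% of the counts, and the longer ENSMUST00000063820 held the rest and all counts of the other libraries. Factor X is known mainly as a product of the liver, and the summed level of 6 hepatocyte markers was 0 to 0.0625 CPM in control and 0.0268 to 0.146 CPM with Ti, with Alb, Ttr and Serpina1a at 0 in every library. F2 and Fgb, which are coagulation genes as well, are among the 6 and stood at 0.0624 and 0.0416 CPM in Ti replicate 3. The part of these markers in the F10 values was not tested.

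Plat (ENSMUSG00000031538, chromosome 8, 22757727 to 22782844, plus strand), the second plasminogen activator, was scarce but reached at least 4 counts in every library. Its rescaled counts were 12, 4 and 8 in control and 19, 9 and 8 with Ti, or 0.188, 0.0997 and 0.192 CPM against 0.408, 0.241 and 0.166 CPM. Ti replicate 1 was the highest and Ti replicate 3 lay below 2 control libraries, so the groups overlapped. With no filter the log2 fold change was 0.74 ± 0.53 (edgeR adjusted p 0.817).

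Serpinb2 (ENSMUSG00000062345, chromosome 1, 107511423 to 107535478, plus strand), the gene of plasminogen activator inhibitor 2, was at 0 in 5 libraries and at 2 rescaled counts in Ti replicate 3. F3 (ENSMUSG00000028128, chromosome 3, 121723537 to 121735048, plus strand), the tissue factor gene, was at 1 count in control replicate 3, at 2 in Ti replicate 3 and at 0 in the other libraries. Thbs1 (ENSMUSG00000040152, chromosome 2, 118111876 to 118127133, plus strand) was at 2 counts in control replicate 2 and at 0 elsewhere. All of these lie below the limit that a count of 0 allows, so differences in annotated transcripts were not detectable at this depth and no fold is given. Serpinb2 overlaps 1 other annotated gene on its own strand and Thbs1 overlaps 1 on the opposite strand. In the annotated transcripts, the levels of these 3 genes were thus not measurable with or without the particles. Assembled transcripts outside the annotation were not searched for them.

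Further genes of the pathway were read from 6 lists of 65 genes, of which 32 were tested. None passed the adjustment over all genes by edgeR, and DESeq2 called 2, Vkorc1 and Itga5, both with Ti higher. The median log2 fold change of the 32 was 0.029, beside 0.005 over all genes tested, and 56.2% were higher with Ti, beside 50.9% of all. Both values were close to those of all genes. At an unadjusted p under 0.05 the lists held more: 4 of the 32 (12.5%) with Ti higher, beside 3.42% of all genes, and 3 (9.38%) with Ti lower, beside 3.34%. With the replicate block these were 6 (18.8%) higher, beside 5.04%, and 2 (6.25%) lower, beside 4.32%. The lists were chosen with earlier results known, so these shares are a description. The block brought in Cd36 and Itgav, receptors of thrombospondins, and left out Lrp1 (unadjusted p 0.0520). Cd36, named after its values were seen, had Ti over control ratios of 1.67, 1.65 and 1.48 by number and a blocked log2 fold change of 0.68 ± 0.07 (unadjusted p 0.00083, edgeR adjusted p 0.292). Without the block its unadjusted edgeR p was 0.0614. Sdc4, also named after its values were seen, was under 0.05 unadjusted with Ti higher in both fits. Its ratios were 1.64, 1.54 and 1.70, with a blocked log2 fold change of 0.70 ± 0.07 (unadjusted p 0.000629, edgeR adjusted p 0.2895).

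The plasminogen list had 7 of 14 genes tested, 4 higher and 3 lower, with a median log2 fold change of 0.08. Among genes whose products bind plasminogen at the surface, the levels spanned a wide range. Eno1, which can serve as a plasminogen receptor, had means of 1205 ± 256 CPM in control libraries and 1341 ± 281 CPM in Ti libraries, and Anxa2, the annexin that binds plasminogen and its activator, 425 ± 143 and 393 ± 127 CPM (SD, n = 3 per group). Plgrkt, the plasminogen receptor with a C-terminal lysine, named after its values were seen, had means of only 4.79 ± 2.82 and 5.46 ± 0.98 CPM. Lrp1, the receptor that clears urokinase bound to its inhibitor, had means of 2461 ± 139 and 1914 ± 325 CPM and a log2 fold change of -0.36 ± 0.14 (edgeR adjusted p 0.731). The gene of plasminogen itself, Plg, was at 0 in every library.

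Most genes of circulating coagulation factors were not detectable. Of 14 genes for coagulation factors and fibrinogen 8 were below 3 counts in every library and 2 were tested. These were F9, the gene of factor IX, with means of 4.69 ± 1.59 CPM in control and 4.43 ± 2.46 CPM with Ti, and F8, the gene of factor VIII, with 1.67 ± 0.13 and 1.56 ± 0.35 CPM (SD, n = 3 per group). Both log2 fold changes were below 0, with a median of -0.09 and SEs larger than their size. That median covers these 2 genes only: with no filter, which adds genes of few counts whose fitted folds depend on the prior count, it was 2.33, and with no rescaling of transcript values it was 0.97. Of 11 anticoagulant genes 4 were tested, 2 higher and 2 lower, with a median of -0.07 on the log2 scale. Pros1, the gene of protein S, ranged from 14.1 to 17.0 CPM in control and from 10.02 to 16.0 CPM with Ti. Of the 4 thrombin and protease receptors 0 were tested, and F2r and F2rl1 were at 0 in every library.

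All 7 genes for processing and secretion of clotting factors were tested, with a median log2 fold change of 0.03. Vkorc1 (ENSMUSG00000096145), the vitamin K reductase that supports the carboxylation of factors such as factor X, was at 5.71, 6.23 and 3.57 CPM in the control libraries and 16.2, 19.4 and 12.7 CPM in the Ti libraries. The lowest Ti library, at 12.7 CPM, was well above the highest control library, at 6.23 CPM. Its log2 fold change was 1.64 ± 0.28 (edgeR adjusted p 0.228, DESeq2 adjusted p 3.62e-05). The carrier Lman1 and the protease Furin had fold changes of 0.03 ± 0.21 and 0.03 ± 0.14 on the log2 scale. P4hb, the most abundant gene of this list, had means of 1024 ± 263.5 CPM in control and 1068 ± 600 CPM with Ti (SD, n = 3 per group).

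Most receptors and partners of Thbs1 were measured although Thbs1 itself was below 3 counts. Of 15 genes in that list 12 were tested, and Thbs2, Thbs4 and the integrin subunit Itgb3 were not, with 7 higher and 5 lower, with a median log2 fold change of 0.05. Itga5, the fibronectin receptor subunit, had means of 171 ± 2.44 CPM for control and 297 ± 32.6 CPM for Ti (SD, n = 3 per group). The difference was 0.80 ± 0.10 on the log2 scale. It missed the threshold by edgeR (adjusted p 0.134) and passed by DESeq2 (adjusted p 1.25e-06). Tgfb1, whose latent protein thrombospondin 1 activates, had 0.31 ± 0.11 (edgeR adjusted p 0.640). The integrin subunits Itga4 and Itga6 had lower means with Ti, with -0.58 ± 0.14 and -0.51 ± 0.19 (edgeR adjusted p 0.414 and 0.688). Calr, the most abundant gene of this list, varied widely, with means of 549 ± 321 CPM in control and 549 ± 417 CPM with Ti (SD, n = 3 per group).

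**Figure D4:**
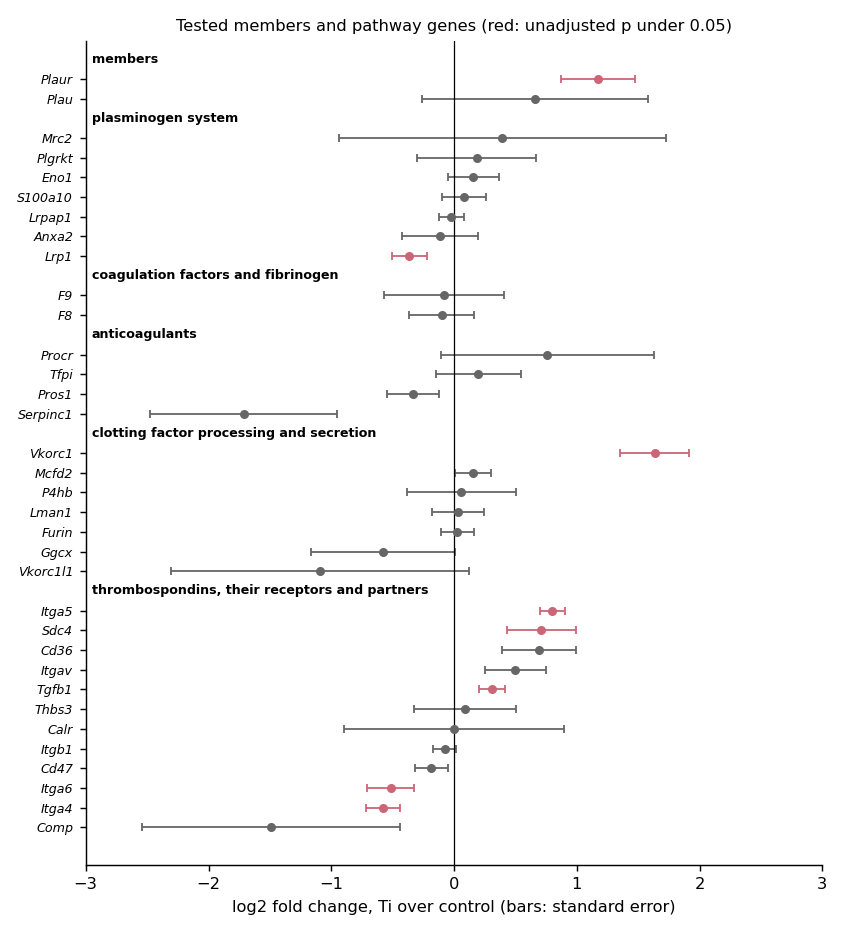
Log2 fold change, Ti over control (horizontal axis), with its standard error for the 2 members and the 32 pathway genes tested, grouped by list. Red marks an unadjusted edgeR p under 0.05. Vkorc1 (1.64) and Plaur (1.17) stand to the right with short bars, Plau (0.66) has a bar that crosses 0, and no gene passed the adjustment over all genes.

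The genes whose pattern over the 6 libraries was nearest to that of the abundant members were found by the root mean square difference of centred log2 CPM, among 9717 other genes of at least 5 CPM. For Plau they were Vegfa, Anxa3 and Rasgef1b, with differences of 0.227, 0.241 and 0.299, beside a spread of Plau itself of 1.13 on the same scale. All of them were high in the libraries numbered 3, as Vegfa was at 3.96, 5.01 and 17.3 CPM in control and 6.67, 5.14 and 22.8 CPM with Ti. For Plaur they were Rassf8, Rhbdf2 and Cxcl10, with differences of 0.178, 0.192 and 0.194, beside a spread of 0.689. Rhbdf2 stood at 36.1, 36.6 and 61.6 CPM in control and 71.8, 60.3 and 105 CPM with Ti, so its groups overlapped. Rassf8 stood at 5.83, 4.94 and 7.41 CPM in control and 11.4, 9.83 and 14.0 CPM with Ti. Cxcl10 stood at 10.5, 11.2 and 14.7 CPM in control and 20.2, 19.1 and 32.2 CPM with Ti. Like Plaur, Rassf8 and Cxcl10 had every Ti library above every control library, as had 5.16% of genes with a count in any library. They were picked for their likeness to Plaur over these same libraries, so this is a description only.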

How the data were processed

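Total RNA of 6 libraries was measured. The authors deposited whole-number estimated counts per transcript, made with HISAT2 and StringTie and listing build mm9, per the submitters' processing notes; which tool counted the reads, and all versions, are not stated there. The 141862 rows with Ensembl identifiers match GENCODE vM21, so names and positions are those of GRCm38, a different build. A further 45489 rows, assembled transcripts with no identifier in that annotation (36.9% to 51.2% of the deposited totals), were not used here. Whether any of them overlap the members was not tested. Low deposited values rise with genomic span (the lower quartile of nonzero values is 3 where the median ratio of span to exon length is 1, and 209 where it is 73.5), so each estimated count was multiplied by exon length over span, summed per gene and rounded, an approximate correction.

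The test was edgeR 4.0.16 by quasi-likelihood with TMM factors and filterByExpr in R 4.3.3, with Benjamini-Hochberg adjustment at 0.05. A standard error is the log2 fold change over the square root of F. DESeq2 1.42.0 ran on the same genes. Code was tested on simulated data. Members and lists were chosen with earlier results of these data known; 1 gene of the plasminogen list is not reported here. Named genes were drawn from the members, up to 4 of a list by smallest p under 0.05, its 3 most abundant genes, and the 3 genes of nearest pattern. Not all of these are described, and some further genes are named. No 2 libraries agreed within sampling noise as computed from rescaled counts. Rescaled counts do not number reads, so this comparison is approximate and does not show that the cultures were separate.

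Deviations of same-numbered libraries from their group means correlated over genes at 0.110, 0.144 and 0.266, against -0.170 to 0.0402 for other pairs. The same-numbered values all exceed 0.1, so the numbers were taken as pairs, from the data and not the labels. Deviations within a group sum to 0 for each gene, so the contrast with other pairs is in part built in. Alternatives were other filters and scalings, DESeq2, the replicate block, left-out libraries, unrescaled values, coding transcripts only and removal of 91 transcripts near 0 in 1 group (under 1 count in each library, at least 10 in each of the other).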

Additional observations from a re-analysis of the deposited data

How the results depend on the processing

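Of the 2 members tested, 0 passed the adjustment in any edgeR setting and 1, Plaur, did by DESeq2. Of the pathway genes 0 passed in any edgeR setting and 2 did by DESeq2. Over all genes, 4 passed in the main fit, 292 by DESeq2 (163 higher, 129 lower), 2 with library totals only, 2 with protein-coding transcripts only and 0 with the replicate block. The block changed no adjusted call of a member or pathway gene, although it changed some unadjusted ones. Leaving out 1 library gave 1 to 13 genes. Dropping both libraries of a number, tried after the data had been seen, left 0 for each number. The cause of these shifts was not tested. Plaur kept its direction in every setting. Plau reversed to -0.60 without Ti replicate 3, reached 1.82 without control replicate 3 and was above 0 in the other settings. The medians of the plasminogen and thrombospondin lists lie near 0 and changed sign under some settings, such as -0.07 for the plasminogen list without control replicate 3. Medians of the shorter lists moved further: coagulation factors from -0.09 to 2.33 with no filter and 0.97 with no rescaling, and anticoagulants from -0.07 to -0.67 with both libraries numbered 3 left out. Counts under 3 in a library limit what can be said of Serpinb2, F3 and Thbs1.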

Other observations

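2 further values of the pathway lists were picked after they had been seen. F7, the gene of the factor that tissue factor binds, stood at 0, 1 and 0 rescaled counts in control replicates 1, 2 and 3 and at 9, 5 and 2 in the Ti ones. Every Ti library was above every control library, as for 5.16% of genes with a count in any library. Ti replicate 3 and all control libraries were below 3 counts, so this separation rests on values under the limit of detection. The filter left it out of the main fit, and with no filter its log2 fold change was 3.65 ± 1.22 (unadjusted p 0.0212, edgeR adjusted p 0.817). The control side of that value rests on 1 count in control replicate 2, so it also depends on the prior count. Vkorc1l1, the paralogue of Vkorc1, stood at 3.10, 6.63 and 26.3 CPM in control and at 12.5, 0.455 and 3.91 CPM with Ti, a spread inside each group larger than the difference between them (log2 fold change -1.09 ± 1.21).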
